A study of Mus musculus with 18 samples.

Results

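Vegfa and 8 other genes of the VEGF and hypoxia pathway were followed in hippocampus and cortex of mice given urban particulate matter through the nose. The 9 genes (Vegfa, Kdr, Flt1, Hif1a, Epas1, Egln3, Pgk1, Ldha and Adm) were chosen by symbol, and each had a row in all 18 count tables, which held 23238 distinct symbols. Animals were male C57BL/6 mice, 7 weeks of age when exposure began, and the material was UPM, a certified urban dust suspended in PBS, with PBS alone as the vehicle. Long-term UPM was given 2 times a week for 3, 8, 12, 16 or 20 weeks, short-term UPM every day for 3, 5 or 7 days, and each tissue had 1 control library. The mice of a group contributed to 1 RNA pool, so each tissue and time is 1 library, and libraries of different times stand in for replicates. The p-values below measure the spread between such libraries, not between mice, and the labels do not give the time at which the control was taken.

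VEGF-A, the product of Vegfa, is the secreted growth factor that keeps and extends blood vessels, and in the brain it comes mainly from astrocytes and neurons. Endothelial cells read it through VEGFR2 (Kdr), the receptor that carries most of the signal, and VEGFR1 (Flt1), which binds it tightly and limits it. Hif1a and Epas1 encode the oxygen-sensitive subunits HIF-1α and HIF-2α, which prolyl hydroxylases such as PHD3 (Egln3) mark for destruction while oxygen is plentiful. When oxygen falls, the stabilised subunits switch on genes that include Vegfa, Egln3, the glycolytic enzymes phosphoglycerate kinase (Pgk1) and lactate dehydrogenase A (Ldha), and the vasodilator peptide adrenomedullin (Adm).

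The libraries were made with an oligo-dT 3' kit, so a count is a read near the end of a transcript and levels are compared between libraries of 1 gene, never between genes. Total counts were 5.43 to 8.97 M per library. Values below are CPM, counts scaled to a common library total, after TMM scaling over the 18 libraries, and 1 count equals 0.112 to 0.184 CPM of the raw total. Markers went with the tissue labels: of 10 hippocampal markers 10 were called higher in hippocampus, and of 10 cortical markers 8 were called lower there. The column headers follow one naming pattern in the 10 libraries of control and 8 to 20 weeks and another in the 8 libraries of 3 days to 3 weeks. The ribosomal precursor RNA Rn45s took 7.75% to 12.9% of counts in the first of these sets and 14.8% to 18.6% in the other. The boundary between the sets falls inside the long-term group, between 3 and 8 weeks, so across it header set, age of the mice and exposure time cannot be told apart. The 3-week libraries combine the long-term dosing rhythm with the headers of the short-term ones.

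The starts of transcription differed in the HIF-binding core they hold. RefSeq promoter windows of GRCm38.p6, running from 250 bases before to 50 after a start, were found for 8 of the 9 genes, 10 windows in all. The core searched was ACGTG, or CACGT on the other strand, and, as a looser form, GCGTG or CACGC. Of 32851 windows of the same length, 19.6% held the first, 32.4% the second and 43.8% either. The windows of the 5 genes that differed between the libraries of 8 to 20 weeks and those of 3 days to 3 weeks, described below, are shown so that those that rose can be read beside those that fell, with matches to either core in capitals. The first Vegfa window (chr17:46032328-46032627, minus strand), Kdr (chr5:75978406-75978705, minus strand) and Flt1 (chr5:147725962-147726261, minus strand) belong to genes that rose, and Hif1a (chr12:73907617-73907916, plus strand) and Pgk1 (chrX:106186850-106187149, plus strand) to genes that fell.
Vegfa: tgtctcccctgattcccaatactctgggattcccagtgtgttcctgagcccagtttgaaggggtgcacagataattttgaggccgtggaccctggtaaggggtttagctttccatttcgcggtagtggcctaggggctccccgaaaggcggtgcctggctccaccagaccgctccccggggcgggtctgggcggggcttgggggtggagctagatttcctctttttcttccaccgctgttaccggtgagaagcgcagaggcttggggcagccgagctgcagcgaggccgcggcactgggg
Kdr: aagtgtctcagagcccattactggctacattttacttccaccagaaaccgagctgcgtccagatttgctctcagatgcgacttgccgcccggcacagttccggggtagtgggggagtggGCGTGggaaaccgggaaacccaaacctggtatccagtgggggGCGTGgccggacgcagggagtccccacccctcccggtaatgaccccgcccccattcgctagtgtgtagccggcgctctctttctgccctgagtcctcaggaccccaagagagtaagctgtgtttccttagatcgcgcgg
Flt1: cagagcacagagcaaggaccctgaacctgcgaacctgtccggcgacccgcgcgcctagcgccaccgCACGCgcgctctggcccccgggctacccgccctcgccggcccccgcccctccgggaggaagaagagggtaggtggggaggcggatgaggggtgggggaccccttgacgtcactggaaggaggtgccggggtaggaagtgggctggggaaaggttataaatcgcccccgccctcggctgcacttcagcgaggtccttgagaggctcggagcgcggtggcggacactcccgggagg
Hif1a: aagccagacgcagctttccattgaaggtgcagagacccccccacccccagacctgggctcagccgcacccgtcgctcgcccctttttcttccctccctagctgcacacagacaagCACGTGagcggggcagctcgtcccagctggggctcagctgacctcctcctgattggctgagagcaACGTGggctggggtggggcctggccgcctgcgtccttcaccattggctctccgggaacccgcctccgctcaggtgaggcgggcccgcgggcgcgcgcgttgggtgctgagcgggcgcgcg
Pgk1: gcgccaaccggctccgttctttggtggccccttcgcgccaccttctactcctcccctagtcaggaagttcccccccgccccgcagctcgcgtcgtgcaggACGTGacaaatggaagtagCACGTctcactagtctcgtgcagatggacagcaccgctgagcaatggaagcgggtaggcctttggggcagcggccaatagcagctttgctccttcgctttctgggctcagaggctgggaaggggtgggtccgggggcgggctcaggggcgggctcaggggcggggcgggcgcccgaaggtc
The first Vegfa window held neither core, Kdr held 2 GCGTG matches and Flt1 held 1. Hif1a held 3 ACGTG matches, of which a pair 135 and 134 bases before the start is the palindrome CACGTG read on both strands, and Pgk1 held 2, at 150 and 131 bases before the start. Of the windows not shown, that of the first Ldha start held 5 ACGTG matches, of which 4 come from 2 palindromes, and 2 GCGTG matches. Egln3 held 1 ACGTG match, Adm held 2 GCGTG matches, the second Ldha window held 2 GCGTG matches, and the second Vegfa window held 1 of each. A match is a description of the letters and shows neither binding nor its absence.

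The clearest change in the pathway lay between the libraries of 8 to 20 weeks and those of 3 days to 3 weeks, 8 against 8 with both tissues in the fit. Vegfa and both of its receptors were higher in the later libraries, and Hif1a and Pgk1 were lower. This contrast coincides with the header sets, so exposure time cannot be told apart in it from header set or age. In all, 5 of the 9 genes passed an adjusted p of 0.05 in edgeR's quasi-likelihood test. The background was high: 4864 of 13702 genes tested (35.5%) were called, 2325 (17.0%) higher and 2539 (18.5%) lower, so a call by itself does not set these genes apart. Libraries of all 8 later times and tissues stood above all 8 earlier ones for 545 genes (3.98%) and below them for 655 genes (4.78%). Such shares were not counted for groups within a single tissue, which hold fewer libraries and so separate more easily.

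**Figure D1:**
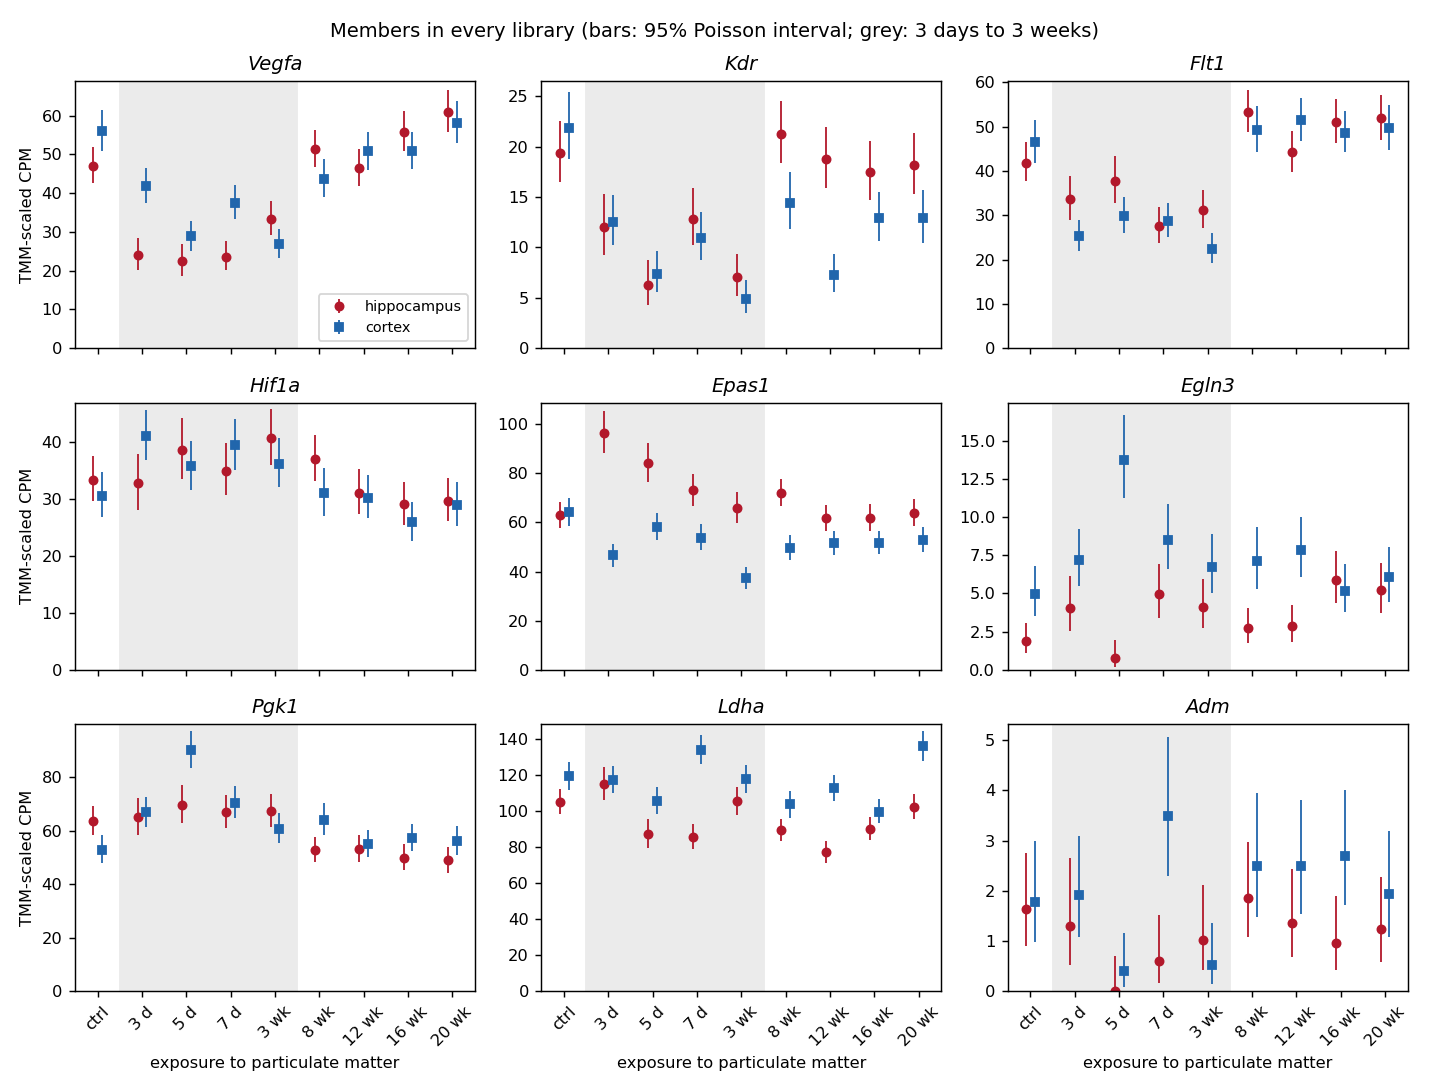
TMM-scaled CPM of each of the 9 genes (vertical axes) in the control library and in libraries of 3 days to 20 weeks of UPM (horizontal axes), with hippocampus as circles and cortex as squares. Bars are 95% Poisson intervals of the single library's count, and the grey band marks 3 days to 3 weeks, where Vegfa, Kdr and Flt1 lie below both controls. The share of all genes that do so was not counted.

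Vegfa, on chromosome 17 (17:46016993-46032369, minus strand, GRCm38), had 51.3, 46.5, 55.8 and 60.9 CPM in hippocampus at 8, 12, 16 and 20 weeks, against 24.0, 22.5, 23.6 and 33.3 CPM at 3, 5 and 7 days and 3 weeks. In cortex it had 43.8, 50.8, 50.9 and 58.1 CPM at the 4 later times, against 41.8, 28.8, 37.6 and 26.9 CPM at the 4 earlier ones. Control levels were 47.1 CPM in hippocampus and 56.0 CPM in cortex. All 8 later libraries thus lay above all 8 earlier ones, and all 8 earlier ones lay below both controls, while later libraries and controls overlapped. Group means were 52.2 ± 5.75 CPM later and 29.8 ± 7.08 CPM earlier (SD), a difference of 0.81 ± 0.12 (log2 fold change ± SE, adjusted p = 2.08e-05), or 1.76-fold. In bulk tissue, more RNA per cell and more cells of the type that makes it cannot be told apart. Ordered by level, the hippocampal libraries showed gaps wider than counting error between 3 days and 3 weeks (24.0 and 33.3 CPM) and between 3 weeks and 12 weeks (33.3 and 46.5 CPM), and the 95% Poisson intervals of the other neighbours overlapped. In cortex the 1 such gap lay among the earlier libraries, between 5 and 7 days (28.8 and 37.6 CPM), and the intervals of the 8-week and 3-day libraries (43.8 and 41.8 CPM) overlapped.

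Flt1 (5:147561604-147726011, minus strand) encodes the receptor that also exists as a secreted trap for the ligand. It had 53.4, 44.3, 51.1 and 51.9 CPM in hippocampus at 8 to 20 weeks, against 33.6, 37.7, 27.6 and 31.2 CPM at 3 days to 3 weeks. Cortex had 49.2, 51.5, 48.7 and 49.7 CPM at the later times, against 25.3, 29.9, 28.7 and 22.4 CPM at the earlier ones. Control libraries had 41.9 CPM in hippocampus and 46.6 CPM in cortex. The 8 later values spread little (49.9 ± 2.78 CPM, SD), and none of them overlapped the 8 earlier ones (29.6 ± 4.79 CPM). The difference was 0.76 ± 0.09 (adjusted p = 1.72e-06). In each tissue the later libraries also stood above, and the earlier ones below, the single control. The 95% Poisson intervals of the control and the nearest later library overlapped in hippocampus (41.9 and 44.3 CPM) and in cortex (46.6 and 48.7 CPM). Those of the control and the nearest earlier library, that of 5 days, overlapped in hippocampus (41.9 and 37.7 CPM) but not in cortex (46.6 and 29.9 CPM).

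Kdr (5:75932827-75978458, minus strand) followed the same direction with a wider spread. Hippocampus had 21.3, 18.7, 17.5 and 18.2 CPM at 8 to 20 weeks, against 12.0, 6.23, 12.8 and 7.07 CPM at 3 days to 3 weeks. Cortex had 14.5, 7.25, 12.9 and 12.9 CPM, against 12.5, 7.40, 10.97 and 4.90 CPM. The hippocampal groups did not overlap, the cortical ones did, through the 12-week library, and in cortex even the later libraries lay below the control (21.9 CPM, with 19.4 CPM in the hippocampal control). Its difference over both tissues was 0.69 ± 0.21 (adjusted p = 0.0115).

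Hif1a (12:73901375-73947530, plus strand), the subunit whose control acts mainly on the protein, moved the other way by a smaller amount. It had 37.0, 31.1, 29.0 and 29.7 CPM in hippocampus at 8 to 20 weeks, against 32.7, 38.5, 34.9 and 40.6 CPM at 3 days to 3 weeks, and the groups overlapped. Cortex had 31.0, 30.2, 25.8 and 29.0 CPM, against 40.9, 35.7, 39.4 and 36.1 CPM, with no overlap, and controls were at 33.3 CPM in hippocampus and 30.5 CPM in cortex. The difference was -0.31 ± 0.09 (adjusted p = 0.00875). In the annotation Hif1a is overlapped by the antisense gene Gm15283 and the same-strand gene Gm49321, and how reads over both were counted is not given in the sources used here.

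Pgk1 (X:106187100-106203699, plus strand), which makes ATP in glycolysis, also fell. Hippocampus had 52.9, 53.3, 49.98 and 48.9 CPM at 8 to 20 weeks, against 65.2, 69.6, 66.9 and 67.3 CPM at 3 days to 3 weeks, without overlap. Cortex had 64.2, 55.1, 57.3 and 56.3 CPM, against 66.8, 90.2, 70.5 and 60.8 CPM, with the 8-week library above the 3-week one. The controls, at 63.5 CPM in hippocampus and 52.9 CPM in cortex, lay below the earlier libraries of their tissue. In hippocampus the 95% Poisson intervals of the control and of every earlier library overlapped. Against the later libraries the tissues went opposite ways, with the hippocampal control above all of them and the cortical control below all of them. The fitted difference was -0.35 ± 0.08 (adjusted p = 0.00141). Processed pseudogenes of Pgk1 and Ldha exist (Pgk1-ps3, Pgk1-rs7, Pgk1-ps1, Ldha-ps and Ldha-ps2), and because the handling of reads with several hits is not given, the levels of both genes are uncertain to that extent.

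The other 4 genes did not pass the test. Epas1 differed by -0.12 ± 0.10 (adjusted p = 0.383), Ldha by -0.10 ± 0.09 (adjusted p = 0.378) and Egln3 by -0.14 ± 0.28 (adjusted p = 0.739). Adm had 0 to 27 counts per library, overlaps the antisense gene Gm28863 in the annotation, and differed by 0.71 ± 0.46 (adjusted p = 0.241). Its 95% interval, -0.24 to 1.67, includes 0, so no difference was detectable at this depth. In the 5-day hippocampal library Adm had 0 counts, which allows a level of up to 0.566 CPM by the limit of 3 counts, while the plotted 95% Poisson interval reaches 0.696 CPM, and both cover counting error only.

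The falls of Hif1a and Pgk1 lost their calls when libraries were scaled by total counts, and the rises of Vegfa, Flt1 and Kdr kept theirs. Hif1a was then at -0.12 (adjusted p = 0.352) and Pgk1 at -0.17 (adjusted p = 0.116), whereas Vegfa was at 0.999, Flt1 at 0.95 and Kdr at 0.88, all called. The same scaling moved the median of all genes by 0.19 and the split of calls to 4090 higher and 1207 lower, from which Hif1a and Pgk1 still stood on the lower side of the median. Epas1, Egln3 and Ldha turned positive under it, at 0.07, 0.04 and 0.09, and stayed uncalled.

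**Figure D2:**
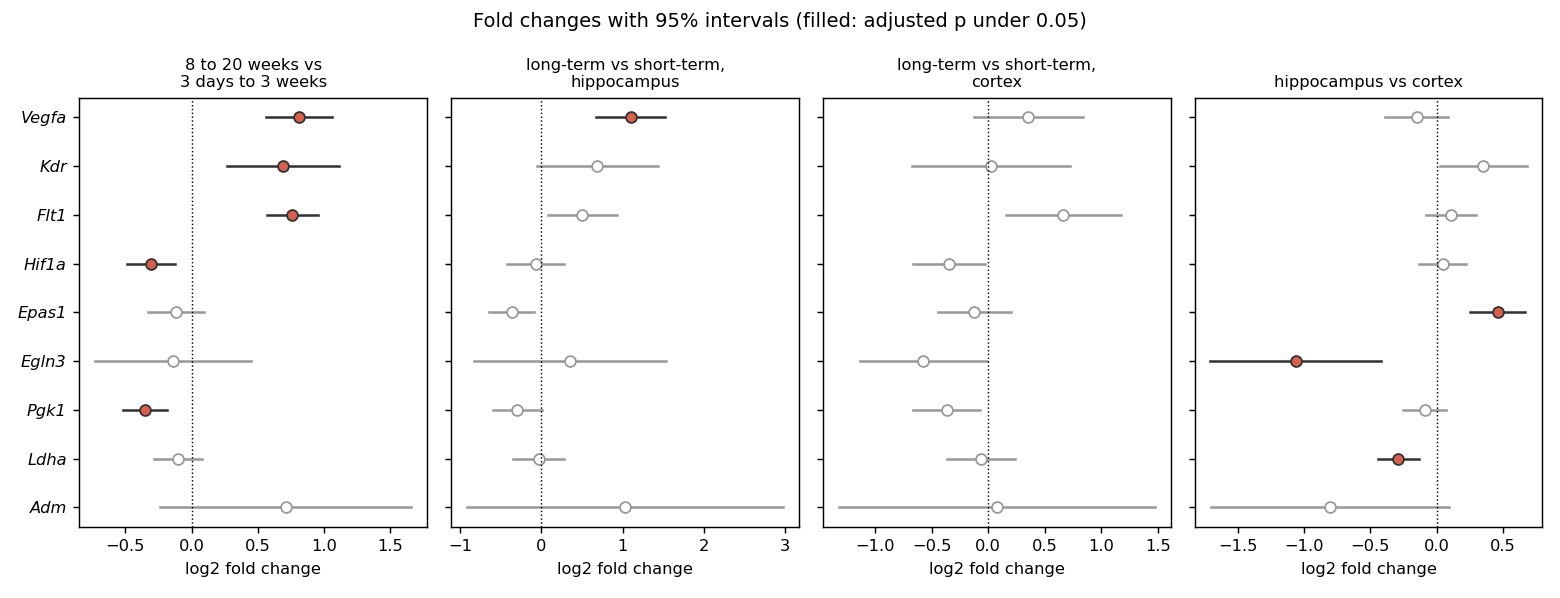
Log2 fold changes (horizontal axes) of the 9 genes (rows) in 4 comparisons, with 95% intervals as lines and filled points for an adjusted p under 0.05. Vegfa, Kdr and Flt1 lie right of 0 in the first panel and Hif1a and Pgk1 left of it, and Epas1, Egln3 and Ldha are the filled points of the tissue panel.

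The labels' own grouping, long-term against short-term, gave fewer calls. In hippocampus (5 against 3 libraries) Vegfa averaged 49.6 ± 10.6 CPM in long-term libraries and 23.4 ± 0.803 CPM in short-term libraries (SD), with no overlap, a difference of 1.10 ± 0.19 (adjusted p = 0.0490). It was the 1 of the 9 genes called, and 35 of 15229 genes (0.230%) were called in all. The Vegfa call was lost with limma-voom (adjusted p = 0.0751), with RLE scaling (adjusted p = 0.0513) and among genes with a mean of at least 50 counts (adjusted p = 0.0528), and the count of called genes ran from 0 to 1173 over the alternatives that kept every library. Kdr (0.69 ± 0.34, adjusted p = 0.270), Flt1 (0.50 ± 0.19, adjusted p = 0.171), Pgk1 (-0.30 ± 0.14, adjusted p = 0.240) and Hif1a (-0.07 ± 0.16, adjusted p = 0.840) did not pass. Epas1 had 65.8, 72.1, 61.6, 61.8 and 63.7 CPM in long-term hippocampus against 96.6, 84.2 and 73.0 CPM in short-term hippocampus, without overlap and without a call (-0.37 ± 0.13, adjusted p = 0.141).

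The count of called genes changed most when the 3-week library, long-term by its label, was left out. Without it the hippocampal comparison called 2195 genes and 4 of the 9: Vegfa (1.21, adjusted p = 0.000462), Flt1 (0.62, adjusted p = 0.0172), Kdr (0.87, adjusted p = 0.0382) and Pgk1 (-0.38, adjusted p = 0.0347). In this fit the groups coincide with the header sets and many genes were called, so a call by itself does not set these genes apart. Leaving out any 1 of the other 7 UPM libraries of hippocampus ended the Vegfa call, with adjusted p of 0.0689 to 0.127 and a log2 fold change of 1.01 to 1.12. Cortical markers summed to 780.4 to 2011 CPM in long-term hippocampus and 752 to 1313 CPM in short-term hippocampus, with 10 of 10 positive (median 0.66) and none called. Hippocampal markers summed to 456 to 708 CPM in long-term hippocampus and 656 to 984 CPM in short-term hippocampus, with 3 of 10 positive (median -0.40) and none called. The part of these marker differences in the Vegfa change was not tested.

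In cortex no gene of 14936 (0%) passed in edgeR for long-term against short-term, although 3081 had an unadjusted p under 0.05 and DESeq2 called 675. Vegfa averaged 46.1 ± 11.9 CPM in long-term cortex and 36.1 ± 6.60 CPM in short-term cortex (SD, n = 5 and n = 3, adjusted p = 0.381 from edgeR) and differed by 0.35 ± 0.22. Flt1 differed by 0.66 ± 0.24 (adjusted p = 0.162), Kdr by 0.02 ± 0.32 (adjusted p = 0.978), Hif1a by -0.35 ± 0.15 (adjusted p = 0.209) and Pgk1 by -0.37 ± 0.14 (adjusted p = 0.170). Without the 3-week library, 3041 genes and 3 of the 9 were called: Flt1 (0.83, adjusted p = 0.000731), Vegfa (0.50, adjusted p = 0.0335) and Hif1a (-0.42, adjusted p = 0.0377). Here too the groups coincide with the header sets and many genes were called, so a call by itself does not set these genes apart. The difference between the tissues in the long-term effect was itself not called for any of 15598 genes (0%) in edgeR, with 1252 at an unadjusted p under 0.05 and 25 called by DESeq2. For Vegfa that difference was 0.73 ± 0.31 (adjusted p = 0.552), so a larger rise in hippocampus than in cortex was not shown.

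Set against the 2 controls, none of the 9 genes passed. In short-term libraries Vegfa was at 24.0, 22.5 and 23.6 CPM in hippocampus and 41.8, 28.8 and 37.6 CPM in cortex, against control levels of 47.1 CPM in hippocampus and 56.0 CPM in cortex, a difference of -0.79 ± 0.25 (adjusted p = 0.0828). Kdr differed by -0.99 ± 0.37 (adjusted p = 0.132), Flt1 by -0.54 ± 0.24 (adjusted p = 0.184), Egln3 by 0.92 ± 0.49 (adjusted p = 0.279) and Pgk1 by 0.30 ± 0.15 (adjusted p = 0.256). Vegfa, Kdr and Flt1 were below the control of their tissue in 6 of 6 short-term libraries. The number of all genes that did so was not counted. This comparison called 288 of 14865 genes (1.94%), and Vegfa passed it with DESeq2 (adjusted p = 0.0457) and with total-count scaling (adjusted p = 0.0489). No gene was called with exposure time as a block, without the control library of either tissue, or without the 5-day cortical library, and leaving out 1 library gave 0 to 347 calls in all. In long-term libraries Vegfa (-0.10 ± 0.24), Flt1 (0.03 ± 0.23) and Kdr (-0.65 ± 0.35) each had an adjusted p of 1, and 0 of 14865 genes (0%) were called by edgeR, with 185 at an unadjusted p under 0.05 and 0 by DESeq2 and limma-voom. The short-term and long-term comparisons share the same 2 controls, which lie in the header set of the later times.

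Within each header set none of the 9 genes passed a test over time. The 3-week libraries differed from those of 3 to 7 days by 0.05 ± 0.24 for Vegfa, -0.22 ± 0.21 for Flt1 and -0.82 ± 0.39 for Kdr (adjusted p = 0.999 each), and 0 of 14036 genes (0%) were called by edgeR, with 606 at an unadjusted p under 0.05 and 13 by DESeq2. From 8 to 20 weeks Vegfa had a slope of 0.27 ± 0.09 per 10 weeks (log2, adjusted p = 0.350), where 40 of 13968 genes (0.286%) were called. With the 3-week libraries added, the Vegfa slope was 0.51 (adjusted p = 0.0343), a range of times that crosses the header sets.

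Between the tissues, 3 of the 9 genes differed over the 9 times: Epas1 was higher, and Egln3 and Ldha lower, in hippocampus than in cortex. This comparison called 2507 of 14865 genes (16.9%), 1130 (7.60%) higher and 1377 (9.26%) lower in hippocampus. Epas1 (17:86753700-86833410, plus strand) encodes the HIF subunit best known from endothelium, and in the annotation it overlaps AC096777.1. It ran from 61.6 to 96.6 CPM in hippocampus (median 65.8 CPM) and from 37.2 to 64.1 CPM in cortex (median 51.6 CPM). Hippocampus was higher at 8 of 9 times, all but the control (62.9 against 64.1 CPM), with a difference of 0.46 ± 0.10 (adjusted p = 0.00291).

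Egln3 (12:54178981-54203860, minus strand), itself a hypoxia target, had 0.755 to 5.90 CPM in hippocampus (median 4.06 CPM) and 4.96 to 13.8 CPM in cortex (median 7.09 CPM). It was lower in hippocampus at 8 of 9 times, all but 16 weeks (5.90 against 5.17 CPM), by -1.06 ± 0.31 (adjusted p = 0.0233). Its counts were low, 4 to 104 per library, and the widest gap was that of the 5-day libraries, with 0.755 CPM in hippocampus and 13.8 CPM in cortex. Without any 1 of 5 libraries (the hippocampal control or 12-week library, or the cortical control, 8-week or 12-week library) the adjusted p was 0.0501 to 0.0614.

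Ldha (7:46841475-46855627, plus strand), which turns pyruvate into lactate, had 77.4 to 115 CPM in hippocampus (median 90.3 CPM) and 99.8 to 136 CPM in cortex (median 118 CPM). The tissues overlapped as groups, yet hippocampus was lower at 9 of 9 times (-0.29 ± 0.07, adjusted p = 0.0103). Its tissue call was lost with total-count scaling (-0.22, adjusted p = 0.0639).

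**Figure D3:**
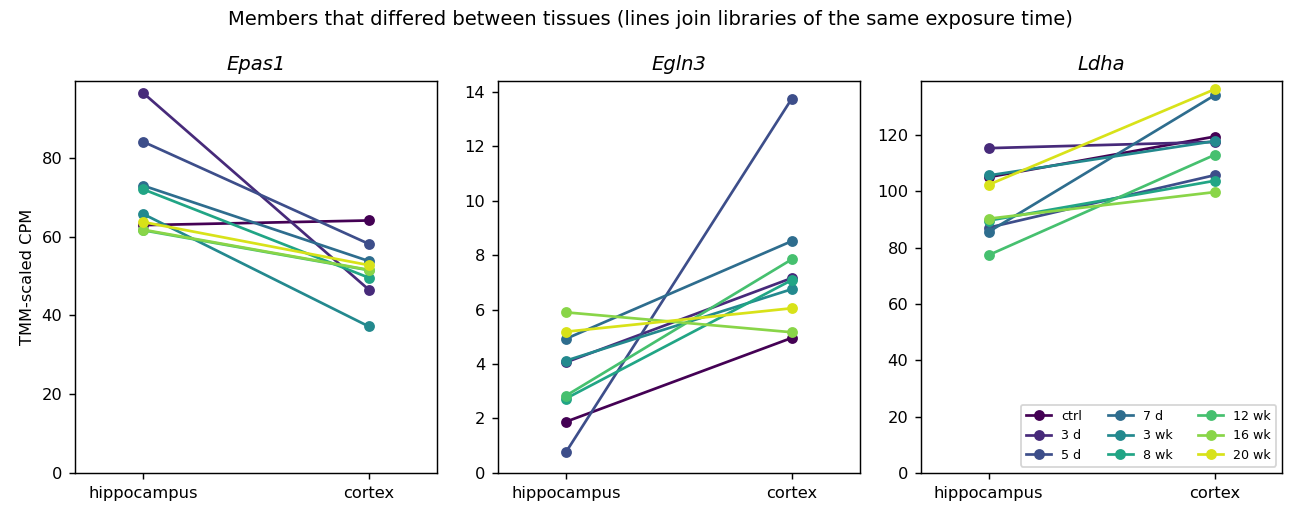
TMM-scaled CPM (vertical axes) of Epas1, Egln3 and Ldha in hippocampus (left) and cortex (right), with 1 line for each exposure time. Lines fall from left to right for Epas1 at 8 of 9 times and climb for Egln3 at 8 and for Ldha at 9 of 9 times.

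The tissue differences of these genes kept their sign within each header set, with fewer libraries, and 1 of them was called in each set. Over all genes, 2912 of 14465 were called in control and 8 to 20 weeks, more than the 2507 of all 18 libraries. In 3 days to 3 weeks 656 of 14036 were called. Epas1 was at 0.26 (adjusted p = 0.0609) in control and 8 to 20 weeks and at 0.73 (adjusted p = 0.0107) in 3 days to 3 weeks. Egln3 was at -0.81 (adjusted p = 0.0610) in control and 8 to 20 weeks and at -1.38 (adjusted p = 0.172) in 3 days to 3 weeks. Ldha was at -0.30 (adjusted p = 0.0157) in the first of these and at -0.26 (adjusted p = 0.372) in the other. Of astrocyte markers, 7 of 12 were also called higher in hippocampus and none lower, and of 15 endothelial markers none was called in either direction. Oligodendrocyte markers had 3 of 9 called higher, and red cell genes 3 of 7 called lower, where 16.9% of all genes were called in either direction. Choroid plexus markers were positive for 15 of 15 (median 1.45, 2 called higher), with sums of 183 to 8706 CPM in hippocampus and 260.1 to 5680 CPM in cortex. The part of any of these in the differences of Epas1, Egln3 and Ldha was not tested.

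Neither VEGF receptor, nor Vegfa, Hif1a, Pgk1 or Adm, was called between the tissues. Kdr differed by 0.35 ± 0.15 (adjusted p = 0.139), Flt1 by 0.11 ± 0.09 (adjusted p = 0.460), Vegfa by -0.15 ± 0.11 (adjusted p = 0.425), Hif1a by 0.05 ± 0.08 (adjusted p = 0.774), Pgk1 by -0.09 ± 0.08 (adjusted p = 0.510) and Adm by -0.80 ± 0.42 (adjusted p = 0.230). The co-receptors of the family, in contrast, differed widely: Nrp1 by 1.24 ± 0.13 (adjusted p = 4.69e-06) and Nrp2 by 1.41 ± 0.13 (adjusted p = 1.43e-06), each higher in hippocampus. Neuropilins bind both VEGF-A and semaphorins, and Sema3a, a semaphorin ligand, was lower in hippocampus by -2.26 ± 0.29 (adjusted p = 3.04e-05). The placental growth factor gene Pgf, a further Flt1 ligand, was higher by 1.404 ± 0.31 (adjusted p = 0.00385).

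Receptor components for adrenomedullin differed between the tissues in opposite directions, Ramp2 by 0.82 ± 0.12 (adjusted p = 0.000104) and Ramp3 by -1.54 ± 0.17 (adjusted p = 5.85e-06). Over the 5 pathway lists (HIF subunits and regulators, glycolysis and lactate, other hypoxia targets, VEGF ligands and receptors, and adrenomedullin with angiopoietin and apelin), 8 of 85 genes tested were higher and 16 lower in hippocampus (28.2% called, beside 16.9% of all genes), with a median of -0.07, beside -0.0048 for all genes. Of glycolytic genes 1 was higher and 6 lower of 24, among the lower ones Ldhb (-0.45 ± 0.07, adjusted p = 0.000264) and Pfkp (-0.42 ± 0.07, adjusted p = 0.000370). Among other hypoxia targets Car12, a carbonic anhydrase, was higher by 1.45 ± 0.24 (adjusted p = 0.000325).

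Over the pathway lists the share of called genes between the later and earlier times was near that of all genes. Of 81 genes tested in the 5 lists, 9 were higher and 17 lower at 8 to 20 weeks than at 3 days to 3 weeks (32.1% called, beside 35.5% of all genes), with a median of -0.01, beside 0.0005 for all genes. Without the 9 genes described above the counts were 6 higher and 15 lower of 72. Of VEGF ligands and receptors, 3 of 11 were higher, which were Vegfa, Kdr and Flt1, and none was lower, with a median of 0.35 (27.3% called, beside 35.5% of all genes); Vegfb, Vegfc, Pgf, Nrp1 and Nrp2 were not called.

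Glycolytic genes had 3 higher and 5 lower of 24 and a median of 0.00 (33.3% called, beside 35.5% of all genes). Beside Pgk1, the lower ones included Tpi1 (121 ± 10.6 CPM later, 190 ± 21.7 CPM earlier; -0.65 ± 0.06, adjusted p = 7.15e-08), Gapdh (-0.51 ± 0.09, adjusted p = 0.000167) and Aldoc (-0.33 ± 0.08, adjusted p = 0.00398), all enzymes of the same pathway. The higher ones were the glucose transporter Slc2a1, the hexokinase Hk1 and the regulator Pfkfb4. HIF subunits and regulators had 1 higher and 4 lower of 12 (41.7% called, beside 35.5% of all genes). The lower ones were Hif1a, Egln1, Vhl and Cited2, with Arnt2, a partner of the oxygen-sensitive subunits, at 0.41 ± 0.09 (adjusted p = 0.00131).

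Other hypoxia targets had 2 higher and 6 lower of 23 (34.8% called, beside 35.5% of all genes). The mitophagy receptor gene Bnip3l (-0.51 ± 0.08, adjusted p = 3.22e-05), Mif (-0.39 ± 0.08, adjusted p = 0.000450), the collagen prolyl hydroxylase subunit P4ha1 (-0.55 ± 0.13, adjusted p = 0.00304) and Fam162a (-0.37 ± 0.10, adjusted p = 0.00483) were lower, and the histone demethylase Kdm3a (0.66 ± 0.16, adjusted p = 0.00304) was higher. Of the adrenomedullin and angiopoietin list 2 of 12 (16.7%, beside 35.5% of all genes) were lower, Ramp1 (40.1 ± 3.28 CPM later, 72.0 ± 12.3 CPM earlier; -0.84 ± 0.09, adjusted p = 5.83e-07) and Angpt1, and none was higher. With total-count scaling the 5 lists had 21 higher and 6 lower, and the medians of the HIF, glycolytic and other-target lists were 0.02, 0.19 and 0.05, beside 0.19 for all genes. With TMM they were -0.16, 0.00 and -0.14, beside 0.0005 for all genes, so the HIF and other-target medians lay below that of all genes under both scalings.

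**Figure D4:**
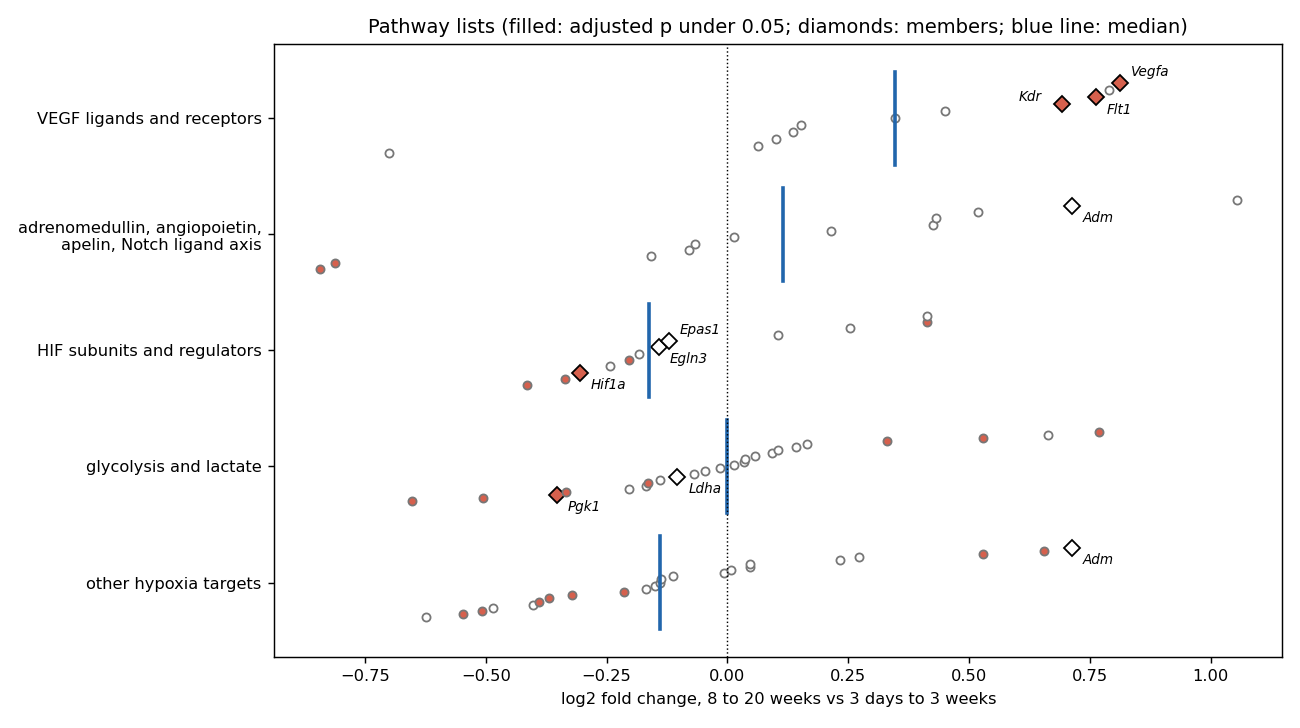
Log2 fold change at 8 to 20 weeks against 3 days to 3 weeks (horizontal axis) of every tested gene in 5 pathway lists (rows), with filled symbols for an adjusted p under 0.05, diamonds for the 9 chosen genes and a blue line at each list's median. Vegfa, Kdr and Flt1 stand at the right end of the VEGF row, while Pgk1 lies with other lower genes of its row.

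Over the same contrast 15 endothelial markers had a median of 0.24, with 1 called higher and 2 lower (20.0% called, beside 35.5% of all genes). Their summed level was 272 to 349 CPM at 8 to 20 weeks, 229 to 297 CPM at 3 days to 3 weeks and 263 to 296 CPM in controls, and the called ones were Ptprb (higher) and Ly6c1 and Itm2a (lower). Relative to the mean log2 level of those markers, Flt1 was at 1.80 to 2.07 in the later libraries, 1.05 to 1.78 in the earlier ones and 1.86 to 1.89 in controls. Its lowest later library (1.80, hippocampus at 8 weeks) and its highest earlier one (1.78, hippocampus at 3 weeks) lay closer than the counting error of the 3-week library, whose Flt1 level of 31.2 CPM has a 95% Poisson interval of 27.2 to 35.7 CPM. On the same scale Vegfa was at 1.74 to 2.29 in later libraries, 0.74 to 1.87 in earlier ones and 2.03 to 2.15 in controls. Kdr was at -0.73 to 0.62 in later libraries, -1.08 to 0.38 in earlier ones and 0.76 to 0.81 in controls. For both genes the later and earlier libraries overlapped on this scale. Of mural cell markers 4 of 11 were called higher and none lower (36.4% called, beside 35.5% of all genes). In hippocampus they summed to 142 to 289 CPM at the later and 92.4 to 152 CPM at the earlier times. In cortex the sums were 106 to 121 CPM at the later and 108 to 133 CPM at the earlier times.

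Nuclear non-coding RNAs moved far more, and with the same libraries. The 6 measured ones (among them Malat1, Meg3 and Neat1) summed to 14000 to 26930 CPM at 8 to 20 weeks, 3206 to 6898 CPM at 3 days to 3 weeks and 24810 to 27040 CPM in controls, and 5 of the 6 were called higher at the later times, with a median of 2.35. Astrocyte markers summed to 4274 to 4727 CPM at the later and 4263 to 5878 CPM at the earlier times, with 6 of 12 called lower. Red cell genes summed to 841 to 1523 CPM at the later and 1141 to 3876 CPM at the earlier times, with 6 of 7 called lower, and microglial markers had 1 higher and 5 lower of 9. Choroid plexus markers summed to 260.1 to 5991 CPM at the later and 198 to 8706 CPM at the earlier times, with none of 15 called. Their median sum was 3743 CPM later and 536.6 CPM earlier in hippocampus, but 308.8 CPM later and 1805 CPM earlier in cortex. The part of any of these shifts in the changes of Vegfa, Kdr, Flt1, Hif1a and Pgk1 was not tested.

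**Figure D5:**
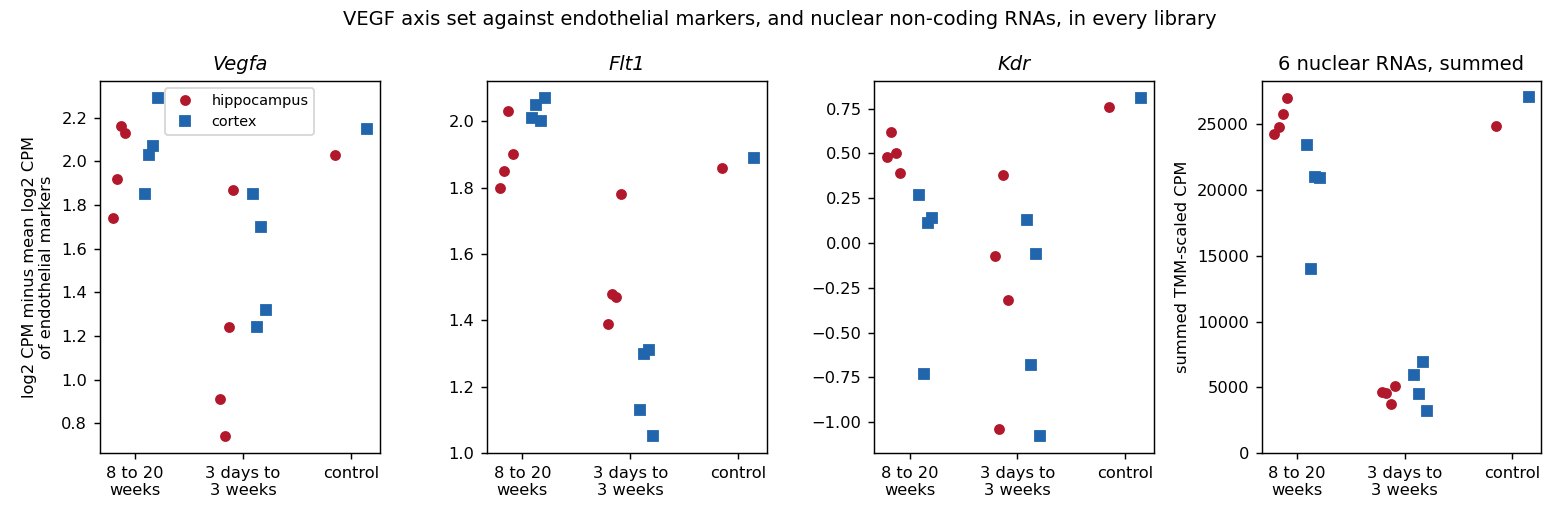
Log2 CPM of Vegfa, Flt1 and Kdr minus the mean log2 CPM of 15 endothelial markers, and the summed CPM of 6 nuclear non-coding RNAs (vertical axes), in each library of 8 to 20 weeks, 3 days to 3 weeks and control (horizontal axes). Flt1 runs from 1.80 to 2.07 in the later and from 1.05 to 1.78 in the earlier libraries, which meet within counting error, Vegfa and Kdr overlap, and the nuclear RNAs separate the earlier libraries from all others.

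The genes whose levels ran most like those of the VEGF genes were found by Pearson's r of log2 CPM over the 18 libraries after the mean of each tissue was subtracted, among 9121 genes with a mean of at least 10 CPM. Nearest to Vegfa were Ubp1 (r = 0.958), the non-coding RNA Kcnq1ot1 (r = 0.947) and Ltbp4 (r = 0.946). Nearest to Flt1 were Crebzf (r = 0.955), Rsrp1 (r = 0.948) and Snhg20 (r = 0.948), and nearest to Kdr were Ttc13 (r = 0.922), the basement membrane collagen gene Col4a1 (r = 0.898) and Nav1 (r = 0.898). These points share the difference between the header sets. With the mean of each tissue and set subtracted, Col4a1 (r = 0.883) and Ttc13 (r = 0.844) were again among the top 3 for Kdr, none of the 3 genes named for Vegfa or for Flt1 was among its top 3, and the nearest genes were Klhdc8b for Vegfa (r = 0.849) and Nkain2 for Flt1 (r = 0.875). For Pgk1 the nearest gene was Kars under both centrings (r = 0.923 and r = 0.867), and each r is a description of these libraries only.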

How the data were processed

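Per the labels' protocols, total RNA was pooled over the mice of each group, and oligo-dT primed 3' libraries were sequenced as single-end reads. The authors deposited raw read counts per gene symbol, 1 table for each of 18 libraries, with no normalization. The submitters' processing notes name Bowtie2, bedtools, edgeR and mm10, without roles, while the annotation, the use of strand and the handling of reads with several hits are not given in the sources used here. Each table had 23282 lines. Spreadsheet dates that had replaced 27 symbols in each of 2 files were turned back by line, and 35 repeated symbols were summed.

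Differences were tested with edgeR 4.0.16 (R 4.3.3): TMM scaling, its default filter on low counts, the quasi-likelihood test and Benjamini-Hochberg adjustment over every gene that passed the filter, called at 0.05. Tissue was a term where both tissues entered, and exposure time was a factor in the tissue comparison, since each time has 1 library of each tissue. DESeq2 1.42.0, limma-voom 3.58.1, other scalings and filters, the newer dispersion estimate, exposure time as a block and leaving out each library were tried as alternatives. The fits were tested on simulated data. Intervals of single levels are 95% Poisson intervals of the count and, like limits for 0 counts, cover counting error only.

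The genes and lists were chosen with earlier results of these data known. Named were the 9 genes in every comparison, up to 10 called genes of the pathway lists with the smallest p, and for likeness the 3 genes with the highest r (prior count 2, mean of at least 10 CPM). Other called list genes, and markers named beside their counts, were chosen after their values were seen. Promoter sequences come from RefSeq (GRCm38.p6), and gene positions from a GRCm38 annotation, the build called mm10.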

Additional observations from a re-analysis of the deposited data

Results flagged for a closer look

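In 4 of 18 groups of 5 long-term libraries (9 genes, 2 tissues), 1 library stood far from the other 4, and each time it was the 3-week one. Its gap to the nearest other library, as a share of the whole range, was 0.731 for Kdr in hippocampus (7.07 CPM, the others 17.5 to 21.3 CPM) and 0.764 for Pgk1 in hippocampus (67.3 CPM, the others 48.9 to 53.3 CPM). It was 0.903 for Flt1 in cortex (22.4 CPM, the others 48.7 to 51.5 CPM) and 0.796 for Epas1 in cortex (37.2 CPM, the others 49.6 to 52.8 CPM). Chance flags about 1 in 20 independent groups, but these 18 share the same 5 libraries within each tissue. The share of all genes flagged by this rule was not counted, so the number of flags does not set these genes apart. The 3-week libraries carry the column headers of the 3 to 7 day libraries.

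Epas1 in short-term libraries lay above the control in all 3 hippocampal libraries and below it in all 3 cortical ones. The 95% Poisson intervals of the 7-day library in hippocampus and of the 5-day and 7-day libraries in cortex overlapped that of their control. The share of all genes with such opposite positions was not counted. The difference of these changes, hippocampus minus cortex, was 0.70 (log2, SE 0.31, adjusted p = 1 from edgeR), with 0 of 15598 genes called and 322 at an unadjusted p under 0.05. With 1 control library in each tissue, this rests on those single levels of 62.9 CPM in hippocampus and 64.1 CPM in cortex.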

How the results depend on the processing

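Of 859 refits of the fold changes of the 9 genes, 810 kept direction and side of the threshold, 22 lost a call, 9 gained one and 18 changed sign, and except where a fit left out libraries the cause was not tested. Vegfa, Kdr and Flt1 passed in all 24 alternatives of 8 to 20 weeks against 3 days to 3 weeks; with total counts 3 of the 9 passed and Epas1, Egln3 and Ldha were at 0.0685, 0.0448 and 0.0861, and leave-one-out fits put Egln3 at -0.303 to 0.0233. For long-term against short-term hippocampus the count of called genes was 1173 with DESeq2, 0 with limma-voom, 1 with RLE scaling, 558 with total counts, 266 without a filter, 1 at a mean of at least 50 counts, 135 with the newer dispersion estimate and 0 to 2195 in leave-one-out fits. Of the 9 genes, 0 passed with limma-voom, RLE scaling or the mean of 50 counts, and 0 to 4 in leave-one-out fits; Hif1a was at 0.10 with total counts. In cortex the count was 675 with DESeq2, 9 with limma-voom, 60 without a filter and 0 to 3041 in leave-one-out fits (0 to 3 of the 9 genes), and Kdr was at -0.0612 with limma-voom and -0.17 to 0.20 in leave-one-out fits. The difference of those changes between tissues gave 25 genes with DESeq2 and 1 with the newer estimate. Short-term against control gave 991 genes with DESeq2, 803 with total counts (1 of the 9, Vegfa, in each) and 0 to 347 in leave-one-out fits. Long-term against control put Vegfa at 0.0296 without the 3-week libraries, and Flt1 at -0.10 to 0.18 in leave-one-out fits. For 3 weeks against 3 to 7 days, DESeq2 called 13 genes and the fit without a filter 11, and Vegfa was at -0.0388 with limma-voom and -0.43 to 0.49 in leave-one-out fits. The slope gave 111 genes with DESeq2, 25 with total counts, 62 without a filter, 487 over 3 to 20 weeks (1 of the 9, Vegfa) and 0 to 71 in leave-one-out fits. Between tissues, 656 genes were called in 3 days to 3 weeks alone, where Hif1a was at -0.0328, and 2912 in control and 8 to 20 weeks, where Vegfa was at 0.0077 and Flt1 at -0.0257; 1 of the 9 passed in each.

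Shared exposure times pair the tissues by design. Without time as a replicate block the tissue comparison called 1629 genes in place of 2507. With time as a random replicate block in limma-voom, short-term against control called 0 genes, against 252 in limma-voom without it. Vegfa at 3 weeks against 3 to 7 days was at -0.0402 with that block, next to -0.0388 in limma-voom without it. The block changed no call of the 9 genes.

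The limits are set by design and depth. Each library is a pool, each tissue has 1 control, and times stand in for replicates. Adm (0 to 27 counts) and Egln3 (4 to 104 counts) are the least precise of the 9 genes. Between 3 and 8 weeks, header set, age and exposure time cannot be told apart.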
